A study of Mus musculus with 6 samples.

Results

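The calcineurin-NFAT pathway was examined through 9 genes: Ppp3ca and Ppp3cb (catalytic subunits), Ppp3r1 (regulatory subunit), Rcan1 and Rcan2 (calcipressins), and Nfatc1, Nfatc2, Nfatc3 and Nfatc4 (transcription factors). They were taken by gene symbol from the TPM values (transcript abundance scaled for length) and joined by gene identifier to the raw counts, where they are 9 of 45777 genes. All 9 passed the filter on low counts, which kept 16188 genes for testing. RNA Seq was performed on the tibialis anterior (TA) muscle, a fast muscle of the lower leg, of old male C57BL/6J mice (24 months by the labels, while the study's text also gives somewhat older ages). One group of 3 mice received vehicle, made with DMSO and Tween 80, and the other 3 received BML-260 at 5 mg/kg by intraperitoneal injection every 24 h for 4 weeks. BML-260 is the small molecule that the study used to target DUSP22, a phosphatase linked to JNK signaling. The study states that its level in muscle may be too low to inhibit the enzyme, and that off-target effects remain possible. A single sex and a single dose were studied, and each library was made from total RNA. The study's methods name C57BL/6 mice, while its reagent list gives beside C57BL/6J a stock name with a targeted allele of Gpr37.

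Calcineurin is a phosphatase that is switched on by calcium and calmodulin. It is built from a catalytic and a calcium-binding regulatory subunit, and it removes phosphates from NFAT proteins, which then enter the nucleus. Kinases such as GSK3 and the JNKs put phosphates back on NFAT or oppose its entry. In skeletal muscle the pathway is known for promoting the slow fiber program, with partners such as MEF2, and calsarcins anchor calcineurin at the Z-disc. The calcipressins bind and inhibit calcineurin. Phosphatase activity and the location of NFAT were not measured by these data, which give RNA levels.

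Rcan1 (gene identifier 54720) lies on the minus strand of chromosome 16, at chr16:92391951-92466169 (GRCm38.p6), and is the member with the best known feedback from NFAT. Its short transcript starts inside the gene and is induced by calcineurin through NFAT, whereas the long transcript starts upstream. The 250 bases before each start are shown, from RefSeq, to set the 2 starts side by side. They were searched for the NFAT core letters GGAAA and, for the other strand, TTTCC. The capitals mark those matches.
Rcan1 long transcript, upstream of the distal start, chr16:92466170-92466419, minus strand: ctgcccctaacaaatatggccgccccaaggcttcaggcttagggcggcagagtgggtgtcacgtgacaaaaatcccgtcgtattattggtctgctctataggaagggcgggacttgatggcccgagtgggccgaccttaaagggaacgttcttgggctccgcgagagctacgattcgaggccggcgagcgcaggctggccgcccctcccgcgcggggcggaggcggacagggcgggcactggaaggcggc
Rcan1 short transcript, upstream of the internal start, chr16:92400079-92400328, minus strand: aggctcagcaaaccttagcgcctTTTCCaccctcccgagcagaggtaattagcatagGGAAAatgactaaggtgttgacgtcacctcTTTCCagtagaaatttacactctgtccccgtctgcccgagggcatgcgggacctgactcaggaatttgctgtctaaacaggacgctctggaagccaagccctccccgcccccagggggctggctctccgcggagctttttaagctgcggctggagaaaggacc
No match was found before the distal start, whereas 3 matches (1 GGAAA and 2 TTTCC) were found before the internal start. Of 32851 mouse promoter windows of the same length, 55.6% held at least 1 match and 6.4% held at least 3. A match is a description of letters, not a bound site. The counts were deposited per gene, so reads of the 2 Rcan1 transcripts could not be told apart, and the levels of Rcan1 given here are those of both together.

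The libraries held between 39522890 and 56998875 counts. Levels per library are given as TMM-normalized CPM (counts relative to the library total after scaling for composition), which compare libraries for 1 gene, and as TPM, which compare genes. Vehicle replicate 3 stood apart from the other libraries. Its TMM factor was 1.203, against 0.914 to 1.02 in the other 5, and it was the lowest library for 6 of the 9 genes and the highest for 2, where among all tested genes these shares were 32.1% and 31.4%. It also had the highest level of all 11 macrophage markers and all 8 Schwann cell markers. The summed TPM of the macrophage list was 143 to 605 with vehicle and 86.2 to 108 with BML-260, that of the Schwann cell list was 23.0 to 112 and 33.6 to 35.9, and that of the neutrophil list, over the 5 of its 9 markers listed with TPM, was 24.2 to 808 and 6.93 to 12.6. The summed TPM of the denervation list, over 8 of its 9 genes, was 87.8 to 315 with vehicle and 38.1 to 57.2 with BML-260. The part of these cells and of denervation in the results was not tested. NFAT factors are also known from lymphocytes, whose markers were close to absent. Of 12 T lymphocyte markers 2 passed the filter, no marker exceeded 74 counts in any library, Cd5 was at 0 in all of them, and the summed TPM of the 3 markers listed with TPM was 0.895 to 1.71 with vehicle and 0.989 to 1.40 with BML-260. Of 8 B lymphocyte markers 1 passed, and no marker exceeded 22 counts in any library. Skeletal muscle fiber markers were abundant, with a summed TPM of 81331.5 to 96113.9 with vehicle and 85661.2 to 108115 with BML-260. Since the tissue was sequenced in bulk, fewer cells of a type and less RNA per cell cannot be told apart.

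The calcineurin subunits were the most abundant of the 9 genes. Averaged over the 6 libraries, TPM was 95.5 for Ppp3cb, 74.1 for Ppp3r1, 68.7 for Ppp3ca, 41.0 for Rcan1 and 19.4 for Rcan2. Among the NFAT factors it was 11.0 for Nfatc1, 10.2 for Nfatc3, 2.90 for Nfatc2 and 1.25 for Nfatc4. Ppp3cb exceeded Ppp3r1, Ppp3ca exceeded Rcan1, and Nfatc2 exceeded Nfatc4 in 6 of 6 libraries, but the ranges over the libraries overlapped in these pairs. The ranges of Ppp3r1 and Ppp3ca overlapped, as did those of Nfatc1 and Nfatc3, with Ppp3r1 above Ppp3ca and Nfatc1 above Nfatc3 in 4 of the 6 libraries. Neighbours with separate ranges were Rcan1 above Rcan2, Rcan2 above Nfatc1, and Nfatc3 above Nfatc2. Nfatc4 was the least covered, with 80 to 300 counts per library.

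The question for each gene was whether BML-260 moved its level. None of the 9 passed edgeR's quasi-likelihood test at an adjusted p under 0.05 (Benjamini-Hochberg over all tested genes), and neither did any of the 16188 genes (0%). Of the 16188, 966 had an unadjusted p under 0.05. DESeq2's Wald test, run without that filter on low counts, called 82 of 25745 genes at an adjusted p under 0.05. At a looser threshold (1.3-fold or more in either direction, raw p below 0.05), 0 of the 9 were called, and 5.75% of all tested genes were. The looser threshold was passed by 0.896% of genes in the direction higher with BML-260 and by 4.86% in the direction lower. Of the 9 genes, 6 had a higher and 3 a lower estimate with BML-260, with a median log2 fold change of 0.12, whereas 49.51% of all tested genes were higher, with a median of -0.0039. On log2(TPM + 1), limma's trend test gave 4 higher and 5 lower with a median of -0.032, and the median of all genes there was -0.089.

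**Figure D1:**
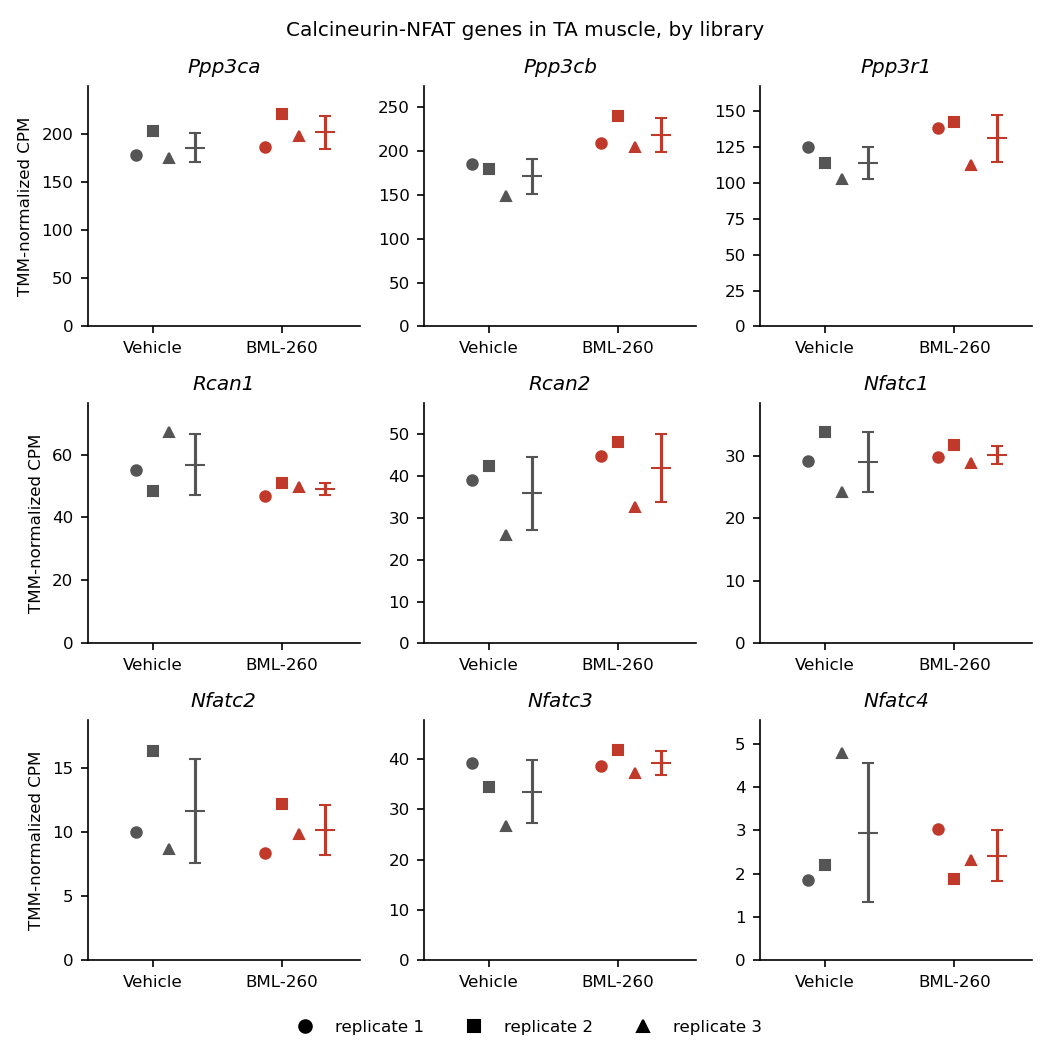
TMM-normalized CPM of the 9 genes (y axes, from 0) in the 3 vehicle (grey) and 3 BML-260 (red) libraries, with bars for the mean and SD of each group (n = 3). Only for Ppp3cb do all red points lie above all grey ones, from 204 to 240 CPM against 148 to 185.

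Ppp3cb (gene identifier 19056), which encodes the beta form of the catalytic subunit, had the largest difference between the groups. Its CPM was 185, 180 and 148 in vehicle replicates 1, 2 and 3, and 209, 240 and 204 in BML-260 replicates 1, 2 and 3. Every BML-260 library was above every vehicle library, as for 5.23% of all tested genes (12.1% without overlap in either direction), and Ppp3cb was the only one of the 9 without overlap. edgeR gave a log2 fold change of 0.35 (SE 0.16), a fold of 1.27 with a 95% interval of 0.989 to 1.64 (edgeR, adjusted p = 0.788). It remained between 0.26 and 0.41 with each library left out, at 0.26 without vehicle replicate 3. In TPM the groups overlapped, with 88.4, 79.2 and 97.5 in the vehicle libraries and 89.6, 121 and 97.8 in the BML-260 libraries.

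Ppp3ca (19055), the alpha form of the catalytic subunit, had CPM of 178, 203 and 175 with vehicle and 187, 221 and 197 with BML-260. The lowest values were in vehicle replicates 1 and 3, and the groups overlapped. The log2 fold change was 0.12 (SE 0.15), a fold of 1.09 with a 95% interval of 0.854 to 1.38 (edgeR, adjusted p = 0.845). Its direction turned with the scale, since on log2(TPM + 1) the estimate was -0.032. Vehicle replicate 3 had the highest TPM of Ppp3ca, 83.2, and the lowest CPM. Ppp3r1 (19058) encodes the calcium-binding regulatory subunit found in muscle. Its CPM was 125, 114 and 103 with vehicle and 138, 142 and 112 with BML-260. Vehicle replicate 3 and BML-260 replicate 3 were low and the groups overlapped, with a log2 fold change of 0.20 (SE 0.16), or 1.15-fold with an interval of 0.894 to 1.48 (edgeR, adjusted p = 0.796).

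The calcipressins differed in the sign of their estimates. Rcan1, the inhibitor described above, had CPM of 54.9, 48.3 and 67.2 with vehicle and 46.9, 50.8 and 49.6 with BML-260. Vehicle replicate 3 was the highest library, and vehicle replicate 2 was within the range of the BML-260 group. Its log2 fold change was -0.21 (SE 0.16), a fold of 0.864 with a 95% interval of 0.675 to 1.11 (edgeR, adjusted p = 0.788), and without vehicle replicate 3 it was -0.070. The TPM of Rcan1 was 39.4, 33.1 and 68.4 with vehicle and 30.5, 37.9 and 36.5 with BML-260, again with a single high library. Rcan2 (53901), the related inhibitor, had CPM of 39.1, 42.4 and 25.9 with vehicle and 44.8, 48.1 and 32.6 with BML-260. Replicate 3 was low in both groups, and the ranges overlapped. The fold change on the log2 scale was 0.23 (SE 0.22), or 1.17-fold with an interval of 0.820 to 1.67 (edgeR, adjusted p = 0.811), and it was 0.042 without vehicle replicate 3. Whether Rcan1 and Rcan2 moved differently was not tested on the counts.

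Among the transcription factors, Nfatc1 and Nfatc3 were the abundant forms. Nfatc1 (18018), which is known to act in slow fibers, had CPM of 29.1, 33.8 and 24.3 with vehicle and 29.9, 31.7 and 28.9 with BML-260. The BML-260 libraries lay inside the vehicle range. edgeR estimated a log2 fold change of 0.053 (SE 0.16), or 1.04-fold with an interval of 0.811 to 1.33 (edgeR, adjusted p = 0.933), with the opposite sign on log2(TPM + 1), -0.099, and without vehicle replicate 3, -0.058. Nfatc3 (18021) had CPM of 39.1, 34.5 and 26.7 with vehicle and 38.6, 41.8 and 37.1 with BML-260. Vehicle replicates 2 and 3 were low, vehicle replicate 1 was within the BML-260 range, and the log2 fold change was 0.23 (SE 0.17), or 1.17-fold with an interval of 0.901 to 1.53 (edgeR, adjusted p = 0.788). It was 0.093 without vehicle replicate 3.

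Nfatc2 (18019), known above all from lymphocytes and from the growth of myotubes, had CPM of 9.999, 16.3 and 8.67 with vehicle and 8.38, 12.2 and 9.87 with BML-260. Replicate 2 was the highest library of both groups, which overlapped. The log2 fold change was -0.20 (SE 0.26), or 0.873-fold with an interval of 0.579 to 1.31 (edgeR, adjusted p = 0.851), and without vehicle replicate 2 it was 0.12. Nfatc4 (73181), the least abundant factor, had CPM of 1.85, 2.20 and 4.78 with vehicle and 3.04, 1.88 and 2.32 with BML-260. A single library, vehicle replicate 3, was high. Between the groups the log2 fold change was -0.29 (SE 0.39), or 0.817-fold with an interval of 0.442 to 1.51 (edgeR, adjusted p = 0.852), and without vehicle replicate 3 it was 0.26.

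**Figure D2:**
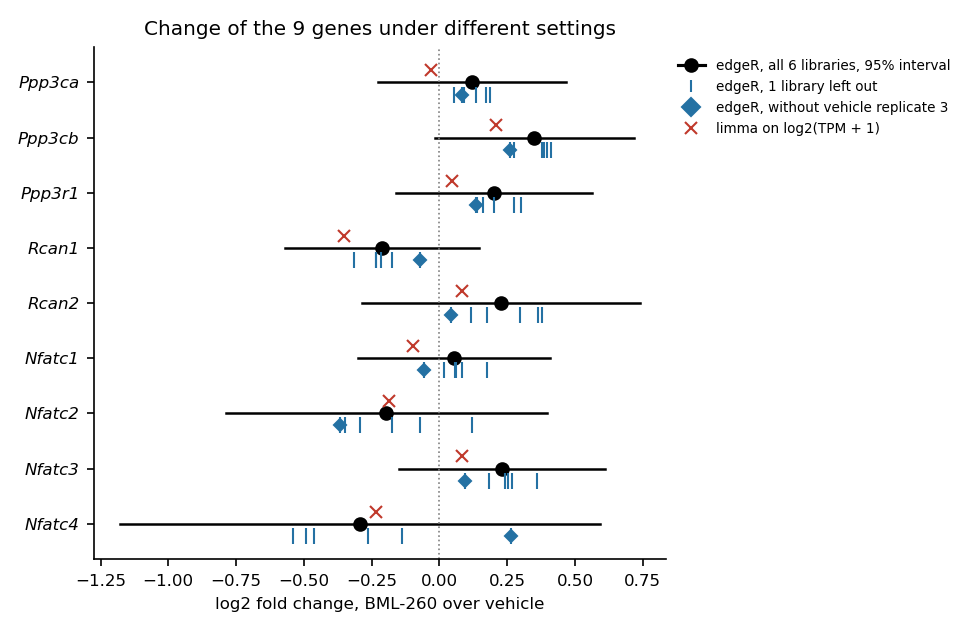
Log2 fold change of BML-260 over vehicle (x axis) for the 9 genes, from edgeR with its 95% interval (black), with 1 library left out (blue ticks, the diamond without vehicle replicate 3) and from limma on log2(TPM + 1) (red crosses). All 9 intervals include 0, and the crosses of Ppp3ca and Nfatc1 lie on the other side of 0 from the black points.

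The intervals set the size of change that these libraries could have missed. For Ppp3ca, Ppp3r1, Rcan1 and Nfatc1 they reached no further than 1.48-fold up and 0.675-fold down. The other intervals were 0.989 to 1.64 for Ppp3cb, 0.901 to 1.53 for Nfatc3 and 0.820 to 1.67 for Rcan2. For Nfatc2 the interval was 0.579 to 1.31, and for Nfatc4 it was 0.442 to 1.51. Libraries were more spread with vehicle than with BML-260 for 7 of the 9 genes, as for 70.5% of all tested genes. The genes with the profile most like that of Rcan1 over the 6 libraries, by the root-mean-square difference of centred log2 CPM, were Ptpn1 (0.0225), Zscan12 (0.0257) and Pym1 (0.0325). Nearest to Ppp3cb were Mfsd8 (0.0222), Nr3c2 (0.0258) and Prkar2a (0.0389). The SD of log2 CPM over the libraries was 0.174 for Rcan1 and 0.215 for Ppp3cb, so these profiles were close over few samples.

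The next question was whether the makeup of the pathway differed, which needs no scaling between libraries. In the pool of catalytic subunits (summed TPM of Ppp3ca, Ppp3cb and Ppp3cc) the share of Ppp3cb was 54.1%, 50.04% and 49.3% in the vehicle libraries and 55.7%, 56.9% and 53.6% in the BML-260 libraries. The groups overlapped at vehicle replicate 1. The mean difference was 4.22 percentage points (exact permutation test, 2-sided, p = 0.2, adjusted p = 0.533 over the 8 measures of this family). The share of Ppp3ca was 40.1% ± 2.76 with vehicle and 36.6% ± 0.798 with BML-260 (SD, n = 3 each), and that of Ppp3cc, the third catalytic form, was 8.74% ± 0.186 and 7.996% ± 1.16. In the NFAT pool, the sum of the 4 factors, Nfatc1 held 44.1% ± 1.80 with vehicle and 42.9% ± 0.810 with BML-260, and Nfatc3 held 38.1% ± 4.83 and 42.4% ± 0.279. Nfatc2 held 12.2% ± 2.98 and 10.6% ± 2.19, and Nfatc4 held 5.59% ± 4.09 and 4.102% ± 1.33. None of these shares separated the groups (exact permutation tests, 2-sided, p from 0.2 to 0.8).

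The ratio of calcipressins to catalytic subunits was the 1 measure of the 8 without overlap. Summed Rcan1 and Rcan2 TPM per 100 catalytic TPM was 35.7, 33.3 and 43.6 in vehicle replicates 1, 2 and 3, and 31.3, 29.2 and 28.9 in the BML-260 libraries. Each BML-260 library was below each vehicle library. The mean difference was -7.70 (exact permutation test, 2-sided, p = 0.1, the smallest that 3 against 3 libraries can give, adjusted p = 0.533 over the 8 measures). It was -4.69 without vehicle replicate 3 and -4.01 when CPM took the place of TPM, with the groups still apart in both. Rcan1 alone per 100 catalytic TPM, a ratio chosen after its values were seen, was 24.1, 20.9 and 34.6 with vehicle and 19.0, 17.8 and 19.99 with BML-260, also without overlap. The difference of Rcan1 per 100 catalytic TPM was -7.63, and -3.60 without vehicle replicate 3. Ppp3r1 per 100 catalytic TPM, chosen in the same way, was 42.1 ± 2.32 with vehicle and 40.8 ± 4.56 with BML-260 (SD, n = 3 each), and the groups overlapped.

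**Figure D3:**
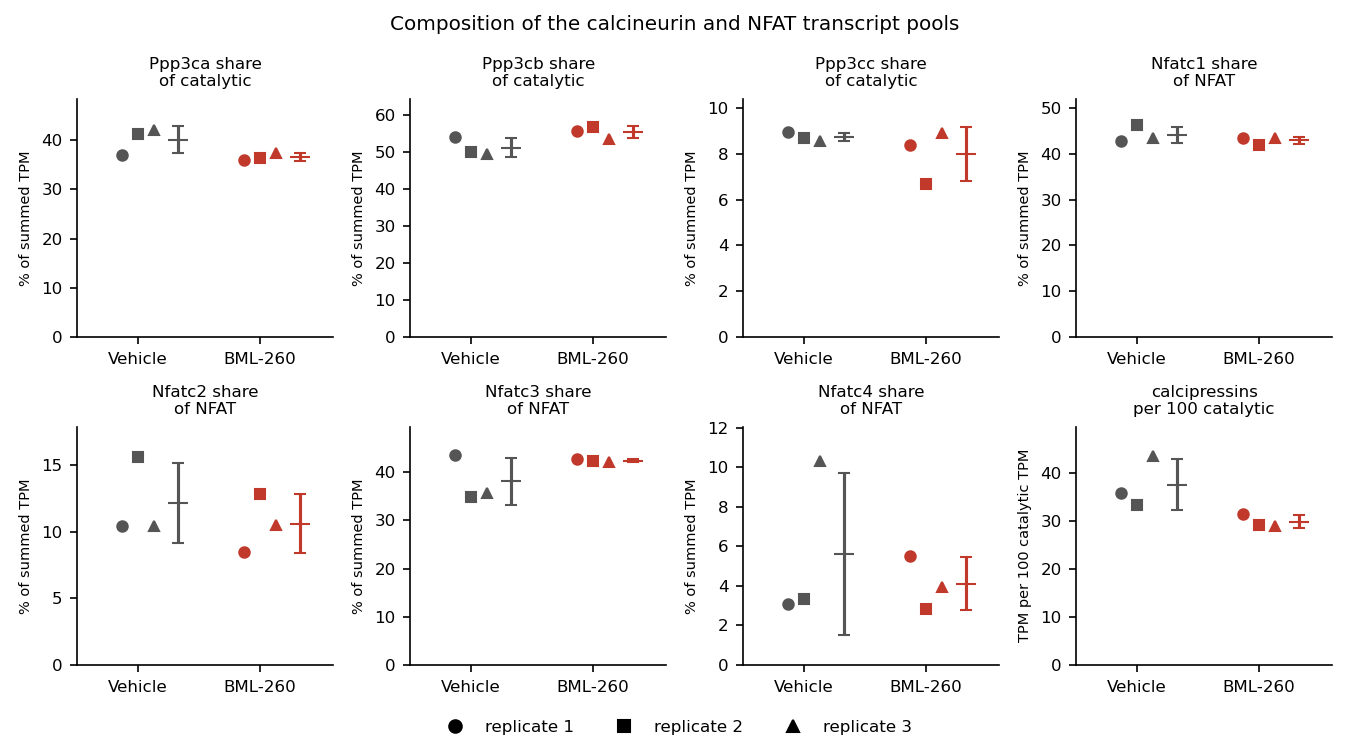
Shares within the catalytic and NFAT pools (% of summed TPM) and the summed calcipressins per 100 catalytic TPM (y axes, from 0), by library (vehicle grey, BML-260 red), with bars for the mean and SD (n = 3). The calcipressin ratio is the panel in which the groups do not overlap, with 28.9 to 31.3 against 33.3 to 43.6.

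The surrounding pathway was read from 8 lists with 76 genes, of which 74 were tested. The lists had 48 genes with a higher and 26 with a lower estimate with BML-260, and a median log2 fold change of 0.091. At an adjusted p under 0.05, edgeR called 0 of the 74, beside 5 with an unadjusted p under 0.05, and DESeq2 called 1 (Sln). In CPM, 7 did not overlap between the groups (9.46%, beside 12.1% of all genes). At the looser threshold 0 were called higher and 5 lower (6.76%, beside 5.75% of all genes in either direction). The 5 were Orai2, Myoz2, Tnni1, Atp2a2 and Sln. Single libraries moved these counts, to 9 lower and 9 higher without vehicle replicate 1, 4 lower and 5 higher without vehicle replicate 3, 2 lower without BML-260 replicate 1 or 3, and 3 lower and 1 higher without BML-260 replicate 2. The count over all genes moved too, from 931 (145 higher) with all libraries to 2223 (835 higher) without vehicle replicate 1, 1207 without vehicle replicate 2, 657 (175 higher) without vehicle replicate 3, and 702, 503 and 656 without BML-260 replicates 1, 2 and 3. Orai2 and Sln were called whichever library was left out, Atp2a2 was not called without BML-260 replicate 1 or 3, Myoz2 was called only without vehicle replicate 1 or 2, and Tnni1 only without vehicle replicate 1. Ppp3r2 (the testis form of the regulatory subunit) and Gata4 were not tested, and both were at 0 in every library.

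Upstream of calcineurin, Calm2 and Calm3 encode calmodulin, the calcium sensor that activates it. Calm3 had CPM of 253, 155 and 111 with vehicle and 305, 252 and 236 with BML-260. Vehicle replicate 1 lay at the level of the BML-260 libraries, and the log2 fold change was 0.61 (SE 0.29, edgeR, adjusted p = 0.788). The fold change was 0.21 for Calm2 on the log2 scale, and vehicle replicate 3 was the lowest library for both genes. Without it the log2 values were 0.37 for Calm3 and 0.024 for Calm2. Without vehicle replicate 1 the value was 0.99 for Calm3, which was called there at the looser threshold.

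Of the 15 genes for calcium entry and release, 11 had higher and 4 lower estimates. Orai2, a store-operated calcium channel subunit, had CPM of 2.09, 2.23 and 2.76 with vehicle and 1.28, 1.02 and 1.32 with BML-260. All BML-260 libraries were below all vehicle libraries. The fold was 0.511 with a 95% interval of 0.338 to 0.773 and a log2 fold change of -0.97 (SE 0.26, edgeR, adjusted p = 0.649), at a mean TPM of 0.695. It remained between -1.05 and -0.84 with each library left out. Ryr1, the calcium release channel and the most abundant of this list, had a log2 fold change of 0.31, with 2853 to 3451 CPM with vehicle and 3621 to 4603 with BML-260, without overlap. In TPM the groups of Ryr1 overlapped, with 350 to 427 with vehicle and 353 to 503 with BML-260. Homer1, a scaffold of calcium channels, had a log2 fold change of 0.44 (SE 0.22, edgeR, adjusted p = 0.788) and overlapping groups. Its log2 value was 0.27 without vehicle replicate 3 and 0.68 without vehicle replicate 1, where it was called at the looser threshold.

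Among the 10 kinases that act on NFAT or compete with calcineurin, 9 had higher estimates, 0 were called, and 10 were higher without vehicle replicate 3. The median log2 fold change of this list was 0.25, and 0.12 without that library. Gsk3a, which phosphorylates NFAT for export from the nucleus, had CPM of 26.7, 19.1 and 15.4 with vehicle and 30.1, 23.9 and 31.1 with BML-260. Only vehicle replicate 1 reached the BML-260 range, and the log2 fold change was 0.47 (SE 0.22, edgeR, adjusted p = 0.788). It was 0.31 without vehicle replicate 3, and the looser threshold was passed without vehicle replicate 1 (0.72) and without BML-260 replicate 2 (0.59). Mapk9, the gene of JNK2, had CPM of 46.4, 36.8 and 35.1 with vehicle and 46.9, 50.5 and 47.3 with BML-260. Its groups did not overlap, although vehicle replicate 1 was within 1 CPM of the lowest BML-260 library, and the log2 fold change was 0.29 (SE 0.15, edgeR, adjusted p = 0.788). In TPM the groups of Mapk9 overlapped, with 12.2 to 17.2 with vehicle and 14.9 to 18.2 with BML-260. Leaving out vehicle replicate 3 gave 0.21 for Mapk9, and leaving out vehicle replicate 1 gave 0.43, past the looser threshold. Csnk1a1, a casein kinase and the most abundant of the list, had a log2 fold change of -0.071, and 0.046 without vehicle replicate 3.

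NFAT partners were divided, with 6 higher and 5 lower estimates and a median log2 fold change of 0.018. Nfat5, the relative of the NFAT factors that responds to osmotic stress and not to calcineurin, had CPM of 51.3, 71.7 and 88.3 with vehicle and 49.0, 51.9 and 54.7 with BML-260. Vehicle replicates 2 and 3 were high, and the log2 fold change was -0.44 (SE 0.20, edgeR, adjusted p = 0.788). It was -0.24 without vehicle replicate 3 and -0.62 without vehicle replicate 1, where Nfat5 was called at the looser threshold. Mef2d and Mef2c, muscle transcription factors that act with NFAT, had log2 fold changes of 0.27 and 0.29, and 0.20 and 0.098 without vehicle replicate 3. Neither passed the looser threshold. Hdac4, also of this list and named after its values were seen, had a log2 fold change of -0.33 and overlapping groups. Without vehicle replicate 3 it was -0.58 (edgeR, adjusted p = 0.285). There Hdac4 was the 1 gene of the list called at the looser threshold.

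**Figure D4:**
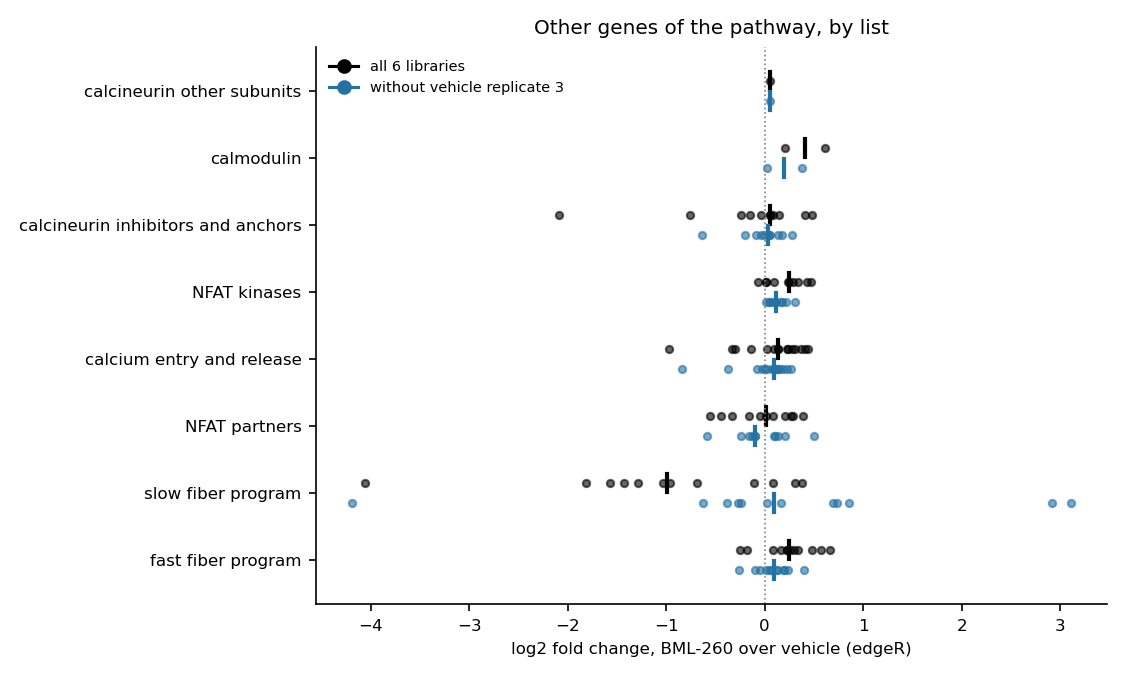
Log2 fold change of BML-260 over vehicle (x axis, edgeR) for the tested genes of the 8 pathway lists (points), with the median of each list (bars), from all 6 libraries (black) and without vehicle replicate 3 (blue). The median of the slow fiber list moves from -0.99 to 0.098 when that library is left out.

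Among the inhibitors and anchors of calcineurin, 1 of 11 genes was called, and that call rested on 1 library. Myoz2, the calsarcin of slow and cardiac muscle, had CPM of 21.97, 20.4 and 263 with vehicle and 17.7, 28.6 and 25.4 with BML-260. The value of vehicle replicate 3 stood far above the other 5, which overlapped. Its log2 fold change was -2.09 (SE 0.91, edgeR, adjusted p = 0.788), and without vehicle replicate 3 it was 0.18. The calsarcins of fast muscle had the opposite outlier and were named for comparison after their values were seen. Myoz1 had CPM of 1255, 922 and 529 with vehicle and 1335, 1016 and 1238 with BML-260, and Myoz3 had 164, 159 and 35.4 with vehicle and 155 to 180 with BML-260. Their log2 fold changes were 0.41 for Myoz1 and 0.49 for Myoz3, and 0.14 and 0.052 without vehicle replicate 3. Without vehicle replicate 1 Myoz1 was called at the looser threshold (0.72). In vehicle replicate 3 Myoz2 made up 34.7% of the summed calsarcin TPM, and in the other 5 libraries between 1.39% and 2.81%. Of the rest of the list, Fkbp1b, a binding partner of FK506 and of calcium release channels, had only 7 to 42 counts per library (log2 fold change -0.76, SE 0.57, and -0.20 without vehicle replicate 3). Fhl1, a LIM protein of muscle and the most abundant of the list, had a log2 fold change of 0.14 and opposite sign on log2(TPM + 1), -0.036.

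In the fiber programs that the pathway is known to act on, the same library stood apart. Of 12 slow fiber genes, 9 had lower and 3 higher estimates with BML-260, with a median log2 fold change of -0.99. Vehicle replicate 3 was the highest library for 8 of the 12, and without it 7 were higher and 5 lower, with a median of 0.098. Of 12 fast fiber genes, 10 had higher estimates (median 0.24, and 0.094 without vehicle replicate 3), 0 were called, and vehicle replicate 3 was the lowest library for 10. Pvalb, which buffers calcium in fast fibers, had 1047 CPM in vehicle replicate 3 and 5054 to 7791 in the others (log2 fold change 0.66, and 0.20 without that library). Myh4, the myosin of type IIb fibers, had a log2 fold change of 0.48, and 0.24 without it. Tnnt3, the fast troponin T and the most abundant of the list, had 0.089, and 0.041 without it.

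Sln and Atp2a2 were lower with BML-260 also without that library. Sln encodes sarcolipin, which binds and uncouples the calcium pump of the sarcoplasmic reticulum. It had CPM of 3.96, 69.5 and 25.9 with vehicle and 1.74, 2.94 and 1.24 with BML-260. The groups did not overlap, although vehicle replicate 1 was close to BML-260 replicate 2. The fold was 0.0601 with a 95% interval of 0.0145 to 0.249 (edgeR, adjusted p = 0.598), and the adjusted p was 0.0263 by DESeq2's Wald test. The log2 fold change of Sln was -4.06 (SE 0.90) and ranged from -4.58 without vehicle replicate 1, where the adjusted p from edgeR was 0.0451, to -2.92 without vehicle replicate 2. With vehicle replicate 1 left out, 9 of all 16719 genes tested had an adjusted p under 0.05. Atp2a2, the slow and cardiac calcium pump, had CPM of 37.9, 48.8 and 107 with vehicle and 31.7, 37.7 and 30.4 with BML-260. These groups did not overlap, with vehicle replicate 1 less than 1 CPM above BML-260 replicate 2. In TPM they overlapped, with 14.0 to 55.8 with vehicle and 10.7 to 14.4 with BML-260. The log2 fold change was -0.96 (SE 0.35, edgeR, adjusted p = 0.788), and it was -0.38 without vehicle replicate 3. Mb, myoglobin and the most abundant of the slow list, had a log2 fold change of 0.089, and -0.27 without that library.

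Myh7, the slow myosin heavy chain, and Myl2, the slow regulatory light chain, turned direction without vehicle replicate 3. They were singled out after their values were seen. Tnnc1, Tnnt1 and Tpm3 of the slow list, named in the same way, turned too, with log2 fold changes from -1.43, -1.03 and -0.69 to 0.69, 0.74 and 0.026. The other myosin genes of the slow list, Myh7b and Myl3, had higher estimates with BML-260 with and without that library. Myh7 had CPM of 1.09, 1.46 and 66.9 with vehicle and 7.93, 12.2 and 8.58 with BML-260. The BML-260 libraries lay above vehicle replicates 1 and 2 and below vehicle replicate 3. The log2 fold change of Myh7 was -1.28 (SE 1.26, edgeR, adjusted p = 0.811) over all 6 libraries. Without vehicle replicate 3 it was 2.92 (edgeR, adjusted p = 0.00232), and there Myh7 was the 1 pathway gene with an adjusted p under 0.05. Of all 16502 genes tested there, 6 had an adjusted p under 0.05. Myl2 had CPM of 1.25, 1.54 and 123 with vehicle and 5.13, 18.5 and 12.4 with BML-260, the same order of libraries. Its log2 fold change was -1.82 (SE 1.45), and 3.11 without vehicle replicate 3 (edgeR, adjusted p = 0.0576). Tnni1, the slow troponin I, named after its values were seen, passed the looser threshold with a log2 fold change of -1.57 (SE 0.65, edgeR, adjusted p = 0.788), with CPM of 1.27, 5.12 and 11.7 with vehicle and 1.72, 2.58 and 1.79 with BML-260. Vehicle replicate 1 was the lowest library of Tnni1, and without vehicle replicate 3 its log2 fold change was -0.63. Without that library the looser threshold was passed by 5 slow fiber genes in the higher and 2 in the lower direction, beside 657 of all 16502 genes tested there, 175 of them higher.

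**Figure D5:**
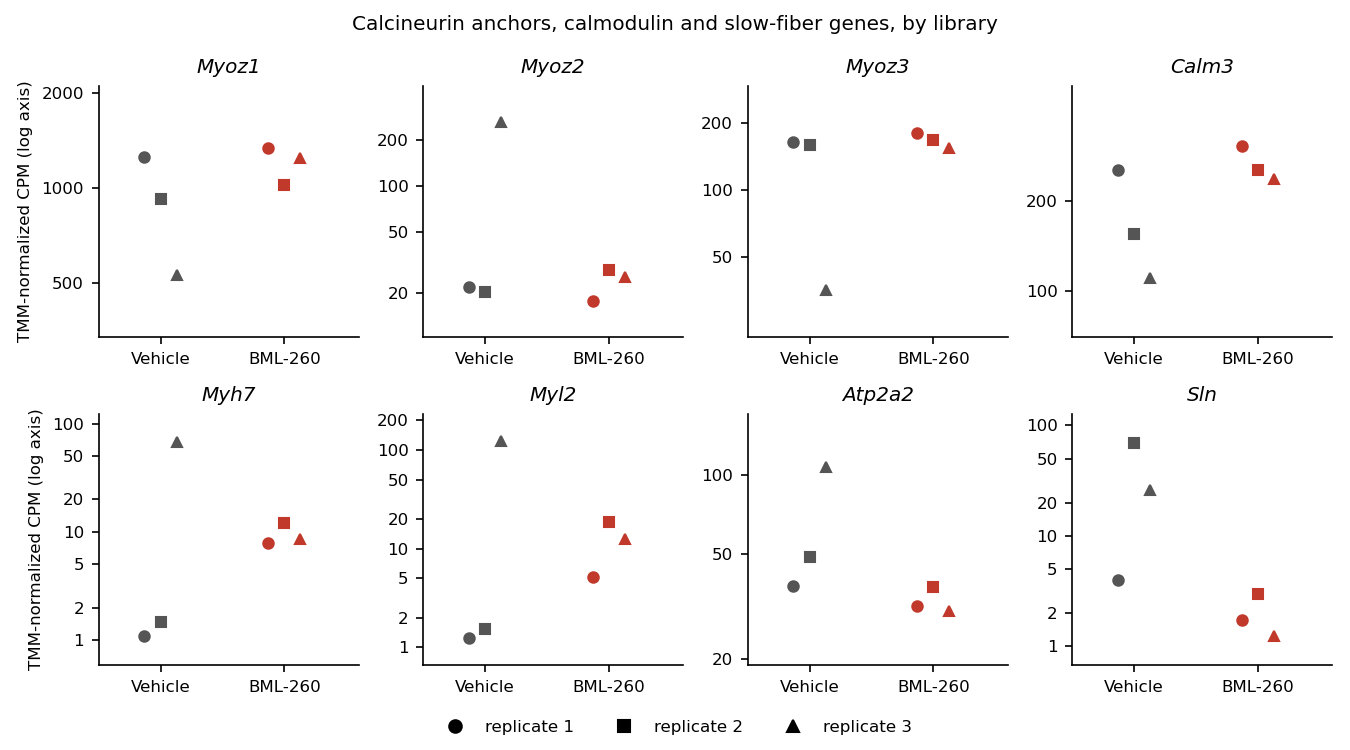
TMM-normalized CPM (log y axes) of the calsarcins Myoz1, Myoz2 and Myoz3, of Calm3 and of the slow-fiber genes Myh7, Myl2, Atp2a2 and Sln, by library (vehicle grey, BML-260 red, triangles replicate 3). Vehicle replicate 3 is far above the other vehicle libraries for Myoz2 (263 CPM), Myh7 (66.9) and Myl2 (123) and the lowest of all libraries for Myoz1 (529) and Myoz3 (35.4).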

How the data were processed

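RNA was measured in the TA muscle of 3 vehicle and 3 BML-260 mice, grouped by the sample labels. The authors deposited raw counts per gene in 1 table and TPM per library, scaled by the authors for transcript length and library total. The submitters' processing notes name HISAT2 2.1.0, StringTie 2.1.3b, Bowtie2 2.3.4.1, Trimmomatic 0.38 and the build mm10. The counting rules and the handling of strand and multi-mapped reads are not given in the sources used here, so reads of overlapping or near-identical genes (the lncRNA Gm41498 within Rcan1, at most 135 counts in a library) may be split or shared. Genes with close paralogs may be affected in the same way. 1 pathway gene is not reported here, and the tallies were made without it.

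The counts were tested with edgeR 4.0.16 in R 4.3.3 (filterByExpr, TMM, quasi-likelihood test, Benjamini-Hochberg adjustment over 16188 genes). The smallest adjusted p over all genes was 0.0592. The looser threshold was 1.3-fold or more with a raw p below 0.05. Alternatives used DESeq2 1.42.0, limma 3.58.1 (voom, and the trend test on log2 TPM after adding 1 or 0.1), other normalizations and filters, a replicate block and the omission of each library. Single values were compared by exact permutation tests, whose smallest 2-sided p with 3 against 3 libraries is 0.1. Of 45777 identifiers, 45679 were found in the RefSeq annotation of GRCm38.p6, which also gave the upstream sequences. Symbols came from the TPM values for the 16800 genes listed there, and from RefSeq for the rest. In the pathway lists, the genes named were those with the 2 smallest p and the highest mean TPM, plus those stated as chosen after their values were seen. The 9 genes, the lists and the tests were chosen with earlier results of these data known. The edgeR code was checked on simulated counts with known changes, larger than those estimated for the 9 genes and without an outlying library. That check does not show what size of change these libraries could reveal. The tests set the difference between the groups against the variation between these mice. Plots were made in Python 3.11.15 and matplotlib 3.10.9.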

Additional observations from a re-analysis of the deposited data

How the results depend on the processing

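No alternative called any of the 9 genes, by adjusted p or at the looser threshold, and each gene's adjusted p was at least 0.383 in every one. Of 143 alternative estimates for the 9 genes, 132 kept their sign and 11 reversed it, and Ppp3cb, Ppp3r1, Rcan1, Rcan2 and Nfatc3 never reversed. Of 411 for 26 other pathway genes, 26 reversed. The causes were not tested.

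With each library left out, log2 fold changes ranged from -0.058 to 0.18 for Nfatc1, from -0.37 to 0.12 for Nfatc2, from -0.54 to 0.26 for Nfatc4, from -2.58 to 0.18 for Myoz2, from -0.069 to 0.35 for Fhl1, from -0.13 to 0.046 for Csnk1a1, from -0.27 to 0.38 for Mb, from -1.84 to 2.92 for Myh7 and from -2.38 to 3.11 for Myl2. The difference in the share of NFAT transcripts ranged from -2.68 to 0.16 percentage points for Nfatc2 and from -2.73 to 0.87 for Nfatc4. Ppp3r1 per 100 catalytic TPM differed by -3.68 to 0.86, and the Myoz2 share of calsarcins by -16.4 to 0.082 percentage points. The pathway count ranged from 0 to 1 by adjusted p, from 2 to 9 lower at the looser threshold and from 0 to 9 higher. Over all tested genes, the count by adjusted p ranged from 0 to 9.

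Limma on log2(TPM + 1) moved the median of all genes from -0.0039 to -0.089, and log2(TPM + 0.1) moved it to -0.14. There the log2 fold change reversed for Ppp3ca (-0.032 and -0.033), Nfatc1 (-0.099 and -0.11), Ppp3cc (-0.040 and -0.043), Fhl1 (-0.036 and -0.037) and Tnnt3 (-0.060 with both), for Myl2 (0.45 and 0.62), and for Myh7 with the smaller pseudocount (0.68). The pathway counts there were 2 lower with both pseudocounts and 1 higher with the smaller. A TPM filter chosen after seeing the data (TPM of at least 1 in 3 libraries, pseudocount 1) left those with a pseudocount of 1 as they were and gave 1 lower, with Nfatc4 not kept. Voom with quality weights reversed Nfatc1 (-0.051), Nfatc4 (0.13), Csnk1a1 (0.017), Mb (-0.17), Myh7 (2.19) and Myl2 (2.03), and 3 pathway genes were higher. Without a filter 2 pathway genes were higher, and by DESeq2 2 were higher and 1 (Sln) passed the adjusted p. DESeq2 gave no p for Myoz2 and Myh7.

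The labels do not say whether the replicate numbers pair the mice, and the main test did not pair them. The log2 CPM of any 2 libraries correlated over genes with 0.940 to 0.985. For a look at pairing, the mean of its group was first subtracted from the log2 CPM of each gene. These deviations correlated with 0.16, 0.054 and 0.11 between same-numbered libraries of the 2 groups, and with -0.12 to -0.021 between differently numbered ones. By these deviations each library thus correlated best with its own number, weakly, and whether the mice were paired was not tested. A replicate block gave 0 of the 9 genes and 3 pathway genes higher at the threshold, with 1057 genes in all against 931, and reversed Myh7 (1.24) and Myl2 (1.01). Nfat5 passed the looser threshold with the block (-0.41) and by DESeq2 (-0.44). Low depth limits the estimates of Nfatc4 (80 to 300 counts) and Fkbp1b (7 to 42).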
